A study of Sus scrofa with 24 samples.

Results

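The spleens of 3 Meishan pigs aged 7 days (7d) were compared with those of 3 Meishan pigs aged 1 day (1d), which spans the first week after birth. Meishan is a Chinese indigenous breed, different animals on a standard diet were used at each age with 1 library per pig, and the labels give neither sex nor litter. The 6 libraries were taken by their age labels out of 24, which cover 8 stages up to 180 days, and all 3000 circRNAs of the deposited table were followed in them. The study identified more circRNAs than this table holds, and how the deposited ones were chosen is not stated. A gene without circRNAs here may therefore have some outside the table. The values are counts of reads across a back-splice junction. The methods of the study describe TRIZOL extraction, removal of ribosomal RNA and RNase R, whereas the sample labels describe a column kit and a stranded total RNA kit, and both ages carry the same labels.

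A circRNA forms when the spliceosome joins the end of an exon to the start of the same or an upstream exon, so that the transcript closes into a ring without cap or tail. Its level depends on the transcription of its host gene and on the splicing and slow decay of the ring. In some newborn mammals the spleen still makes blood cells, and the white pulp of the spleen fills with lymphocytes after birth. Blood cell formation was not examined in these pigs. Dividing precursors use genes of DNA replication and mitosis, and red cell precursors use genes of iron uptake, haem synthesis and the membrane skeleton. In bulk tissue, fewer cells of a type and less RNA per cell cannot be told apart.

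The following back-splice junctions are those of circRNAs on which the results turn, namely circRNAs of the host gene that passed the test (IARS), of the circRNAs with the smallest p in each direction, and of replication, mitosis and red cell host genes. Each run was read from RefSeq Sscrofa11.1, the build of the deposited coordinates, in the direction of transcription, with 15 bases of the last exon in lower case and 15 bases of the first exon in capitals. The border between both cases is the junction that the counted reads cross.
circRNA_23715 (IARS, exons 7 to 9, chr3:41997364-42001550, minus strand): gactattttgtgaagGATGTTCAAGATCCT
circRNA_23703 (IARS, exons 20 to 22, chr3:41973352-41978180, minus strand): ctgtgcagacttatgGAGGAAGAAATGGAA
circRNA_23195 (ATXN2L, exons 9 to 10, chr3:18512814-18513266, plus strand): ttccaccttccgcagGGAGGGAAAGTATAT
circRNA_36888 (CEP295, exons 17 to 19, chr9:26137742-26143371, plus strand): actctgataaagcagACAAGTAAGCCCACA
circRNA_29082 (WASHC4, exons 10 to 13, chr5:79458763-79460620, minus strand): gacatctgtaagaagGTTACTGAAATCTGT
circRNA_06057 (MICU2, exons 3 to 6, chr11:1455412-1463356, minus strand): aaggaattttttaagGTAAAACGGCCGTCA
circRNA_38617 (DTL, exons 2 to 5, chr9:131264261-131268491, minus strand): ctaagtttgagaaagGATGGTCTTCACAAT
circRNA_02197 (KNL1, exons 14 to 18, chr1:130672232-130687333, minus strand): gtacaatcggctcagCACACCCCAGTACTC
circRNA_18091 (HMMR, exons 8 to 16, chr16:60299435-60314538, minus strand): agccaactcaaatcgTGTTTCAATAGAGAA
circRNA_18092 (HMMR, exons 8 to 15, chr16:60300324-60314538, minus strand): actaaaccttttcagTGTTTCAATAGAGAA
circRNA_10754 (SMC4, exons 18 to 19, chr13:100108435-100110232, plus strand): atgctttcaaagcagGTAAATAAAATGGAA
circRNA_11343 (TFRC, exons 9 to 10, chr13:133986643-133987630, plus strand): acatggtcataaaagAAATATGGAACAAGA
circRNA_20897 (SOX6, exons 10 to 11, chr2:42861755-42864865, plus strand): cagcaacagatccagGTACACCTGAGAGCC
The capitals of both HMMR junctions are the same, since these circRNAs start at the same exon and end at different ones.

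The libraries of both ages were alike in depth. Back-splice reads totalled 25283, 19174 and 21349 in the 7d libraries, against 16273, 20930 and 23752 in the 1d libraries (exact permutation test, two-sided, p = 0.6, where 3 against 3 cannot go below 0.10). Reads were found for 2440 ± 151 circRNAs at 7d and for 2403 ± 160 at 1d (SD, n = 3 pigs each; exact permutation p = 0.8). Taken relative to the clean reads of each library, the totals were 202 ± 22.9 at 7d and 183 ± 31.5 at 1d for every 1000000 clean reads (SD, n = 3, exact permutation p = 0.5). The GC content of the library was above that of every 1d library in 2 of the 3 libraries of 7d. Of the counts in the 6 libraries 19.3% were 0 and the smallest count above 0 was 2. A mean of 10 or more normalized counts (counts scaled to a common library size by TMM) was reached by 917 of the 3000 circRNAs, so that most values rest on few reads. The correlation of log2 CPM over the circRNAs was 0.601 to 0.626 between 7d libraries, 0.577 to 0.596 between 1d libraries and 0.535 to 0.6 across ages. Spleen marker genes such as TLX1 and NKX2-5 were not measured here, whereas the B cell genes CD22 and BANK1 and the macrophage gene CTSS had circRNAs.

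No single circRNA passed the thresholds in 7d vs. 1d, which were an adjusted p under 0.05 together with a 2-fold difference or more (edgeR quasi-likelihood test on all 3000 circRNAs, 24 libraries in the fit, Benjamini-Hochberg; 0% called). The smallest adjusted p by edgeR in this fit was 0.155, and DESeq2 also called 0. The study, which states DESeq2 and the same cutoffs, did report differentially expressed circRNAs in this comparison. It identified more circRNAs than the 3000 tested here, and the cause of the difference was not tested. At an unadjusted p under 0.05 stood 284 circRNAs (9.47%), of which 149 were higher (4.97%) and 135 lower (4.5%) at 7d. In 205 circRNAs (6.83%) every 7d library stood above every 1d library, and in 169 (5.63%) every 7d library stood below. The median log2 fold change was 0, and 49.8% of circRNAs had a value above 0. TMM scaling centres fold changes near 0, so these values cannot show whether the table shifted as a whole. With clean reads as the depth the median was 0.09. A fit restricted to the 6 libraries called 3, all higher at 7d, which were named after their values were seen. The smallest edgeR adjusted p of that fit was 6.8e-07, for circRNA_24032 without an assigned host gene (log2 fold change 2.06). The others were circRNA_23675 of NPRL3 (1.54, edgeR adjusted p = 0.00183) and circRNA_18091 of HMMR (1.2, edgeR adjusted p = 0.00292).

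When the counts of all circRNAs of a host gene were summed, 1 of 1675 host genes passed (0.0597%). This was IARS, which encodes the cytoplasmic synthetase that charges the tRNA of isoleucine. Its summed level was 76.8, 96.6 and 62.2 normalized counts in the 7d libraries, against 22.8, 28.3 and 35.7 in the 1d libraries. Every 7d library was above every 1d library, and IARS rose by 1.41 on the log2 scale (SE 0.30, edgeR adjusted p = 0.0303). When libraries were left out singly, the adjusted p by edgeR was 0.0998 and 0.137 in the absence of the first and second 7d pig, and 0.0943 and 0.24 in the absence of the first and second 1d pig, with log2 fold changes from 1.25 to 1.43. It was 0.193 with clean reads as the depth, so the call rests on few libraries while the direction held in each of these fits. At 14d and 21d the mean was 53.3 ± 4.52 and 34.8 ± 13.5, and from 28d to 180d the stage means lay between 26.8 and 29.2.

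IARS lies on chromosome 3 and gave 4 circRNAs, and each of them was higher in every 7d library than in every 1d library. The circRNA of exons 2 to 4, circRNA_23720, had 24.9, 31.0 and 22.4 normalized counts at 7d, against 7.96, 9.88 and 12.1 at 1d (log2 fold change 1.35, SE 0.46). The circRNA of exons 2 to 7, circRNA_23718, which starts at the same exon, had 14.7, 34.6 and 14.4 at 7d, against 7.96, 9.88 and 13.6 at 1d (0.97, SE 0.53). Here the groups are separated by a narrow gap. For exons 7 to 9, circRNA_23715 had 23.5, 14.6 and 9.58 at 7d, against 5.97, 4.94 and 0 at 1d (2.18, SE 0.87). For exons 20 to 22, the furthest downstream of the 4, circRNA_23703 had 13.2, 12.8 and 12.8 at 7d, against 0, 3.29 and 9.04 at 1d (1.53, SE 0.80). No adjusted p of these 4 circRNAs by edgeR was under 0.265. The reads of separate junctions are distinct, but circRNAs of the same gene share its transcription and are not replicates.

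**Figure D1:**
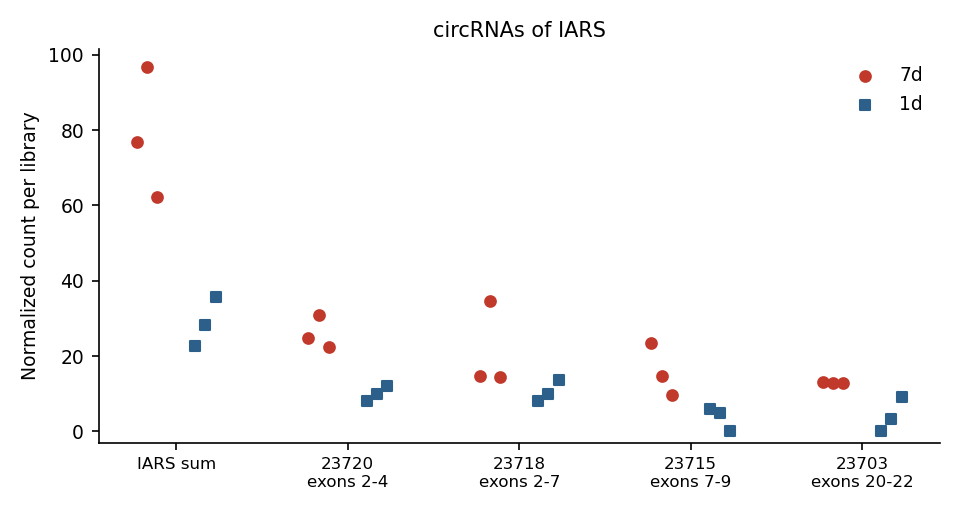
Normalized counts per library (y axis) of IARS summed over its circRNAs and of each of its 4 circRNAs (x axis), at 7d (circles) and 1d (squares); each point is 1 pig. The summed level was 62.2 to 96.6 at 7d and 22.8 to 35.7 at 1d, and the points of the ages do not overlap for any of the 4 circRNAs.

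Among the other host genes that ranked highest by p, those higher at 7d did not pass the test. OSBPL1A, a sterol-binding protein of endosomes with 7 circRNAs, had 75.4, 90.9 and 85.7 normalized counts at 7d, against 47.7, 36.7 and 35.7 at 1d (log2 fold change 1.08, SE 0.25, edgeR adjusted p = 0.0664). With only host genes of a mean of at least 10 in the test, its adjusted p by edgeR was 0.0437. Its 7d libraries all stood far above those of 1d, and unlike IARS it kept a mean of 58.4 to 82.1 at every later stage. Of its circRNAs, circRNA_31573 (exons 8 to 15) had 22, 29.2 and 12.8 at 7d, against 9.95, 6.58 and 0 at 1d. In contrast, circRNA_31571 (exons 12 to 15) had 5.86, 12.8 and 11.2 at 7d, against 9.95, 6.58 and 12.1 at 1d, and its groups overlapped. Both end at the same exon and differ in the exon where they start. CEP295, a centriole protein, had 57.6, 36.0 and 26.9 at 7d, against 16.6, 11.7 and 17.1 at 1d (1.42, edgeR adjusted p = 0.117). ATXN2L, a stress granule protein, had 59.1, 51.1 and 30.3 at 7d, against 24.9, 8.33 and 20.2 at 1d (1.42, adjusted p = 0.119), and ATP11B, a phospholipid flippase, had a log2 fold change of 0.90 (adjusted p = 0.132).

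The host genes lower at 7d with the smallest p did not pass the test either. MICU2, which regulates the calcium uniporter of mitochondria, gave 1 circRNA with 69.5, 89.0 and 90.8 normalized counts at 7d, against 158, 157 and 140 at 1d (log2 fold change -0.87, SE 0.21, edgeR adjusted p = 0.0939). The gap between the groups exceeded the range within each. TET1, an enzyme that oxidizes methylated cytosine, had 62.1, 45.4 and 82.4 at 7d, against 89.2, 123 and 132 at 1d (-0.86, adjusted p = 0.132). DOCK10, an activator of small GTPases that is used in lymphocytes, had 0, 5.68 and 6.72 at 7d, against 20.7, 11.7 and 21.8 at 1d (-2.16, SE 0.59, adjusted p = 0.119). Its stage means were 14.5 at 14d and 31.6 at 180d, so the 7d libraries held the lowest mean of the 8 stages. MSRB3, a methionine sulfoxide reductase, had a log2 fold change of -1.28 (adjusted p = 0.132), and DENND6A, an activator of Rab GTPases with 4 circRNAs, had -1.64 (adjusted p = 0.168).

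Of single circRNAs with a mean of at least 10 and no overlap between ages, 94 were higher and 61 lower at 7d out of 917. The smallest p of those higher belonged to circRNA_23195 of ATXN2L, with 49.8, 45.6 and 22.4 normalized counts at 7d, against 11.9, 8.23 and 19.6 at 1d (log2 fold change 1.54, SE 0.41, edgeR adjusted p = 0.155). Both ages varied widely between pigs, and the lowest 7d library lay just above the highest 1d library. The only circRNA of CEP295, circRNA_36888, had 57.2, 34.6 and 25.5 at 7d, against 15.9, 11.5 and 16.6 at 1d (1.42, SE 0.38). An intergenic circRNA, circRNA_30642 (chr6:74829110-74832543, plus strand, between AGMAT and PLEKHM2), had 38.1, 25.5 and 39.9 at 7d, against 13.9, 18.1 and 3.01 at 1d (1.6, SE 0.48). circRNA_05967 of PSPC1, a paraspeckle protein, varied little within an age. It had 76.2, 78.4 and 65.5 at 7d, against 37.8, 41.2 and 43.7 at 1d (0.84, SE 0.27). circRNA_21848 of ATG10, an enzyme of autophagy, had 17.6, 16.4 and 16 at 7d, against 5.97, 0 and 4.52 at 1d (2.26, SE 0.71). Further circRNAs higher at 7d by this order came from OSBPL1A (2.01), ATP11B (0.99), the long non-coding RNA LOC110255584 (0.83), KATNBL1 (1.35) and the poly(A) polymerase PAPOLA (1.25). LOC110255584 overlaps ZEB1 on the same strand, so the origin of its reads is uncertain. The adjusted p of these 10 by edgeR ran from 0.155 to 0.264.

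Among circRNAs lower at 7d, circRNA_29082 of WASHC4, a subunit of the WASH complex that branches actin on endosomes, had the smallest p of the table (0.000131, edgeR adjusted p = 0.155). It had 32.2, 16.4 and 19.2 normalized counts at 7d, against 39.8, 64.2 and 54.2 at 1d (log2 fold change -1.21, SE 0.30). Its mean was 57.6 to 74.5 at the 6 later stages, so that 7d was the only stage with a mean under that of 1d. circRNA_06057 of MICU2 had 68.9, 85.7 and 86.2 at 7d, against 151, 155 and 136 at 1d (-0.88, SE 0.22). circRNA_20219 of CDK13, a kinase of transcription elongation, had 5.86, 5.47 and 3.19 at 7d, against 21.9, 16.5 and 16.6 at 1d (-1.88, SE 0.60). Each of the 7d libraries held at most 4 raw reads of it. circRNA_15966 of UBR3, a ubiquitin ligase, had 5.86, 3.65 and 3.19 at 7d, against 25.9, 19.8 and 9.04 at 1d (-2.02, SE 0.58).

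The remaining 6 of these 10 had log2 fold changes from -1.82 to -0.78. They came from CCSER2, TEX9, STRN3 (a striatin of phosphatase complexes) and TET1, from a junction inside PAWR that does not match its exon ends (circRNA_29459), and from an unassigned junction. The last, circRNA_38150 (chr9:114529701-114533673, minus strand), lies between MIR214 and MIR199A-1 and inside the span of DNM3, which is on the other strand. It had 5.86, 5.47 and 4.79 normalized counts at 7d, against 29.9, 14.8 and 13.6 at 1d. TET1 showed the narrowest gap, with a highest 7d value of 57.5 and a lowest 1d value of 57.7 for circRNA_13848.

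**Figure D2:**
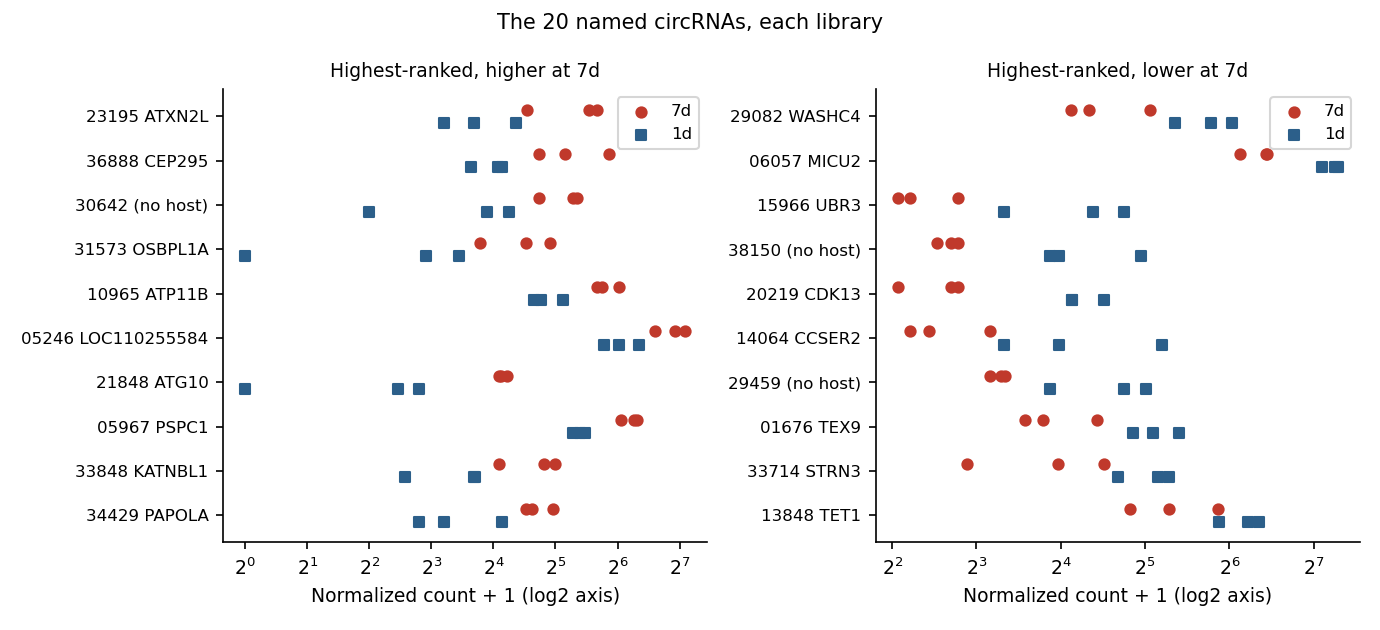
Normalized counts plus 1 per library (x axis, log2 scale) of the 10 circRNAs with the smallest p that were higher at 7d (left) and of the 10 that were lower (right), each with a mean of at least 10 and no overlap between ages; circles are 7d pigs and squares 1d pigs. circRNA_06057 of MICU2 lay at 68.9 to 86.2 at 7d and at 136 to 155 at 1d, the highest levels of the right panel.

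None of the 5 most abundant circRNAs of the 6 libraries passed the test. circRNA_06014 of XPO4, a nuclear transport receptor, had 265, 264 and 295 normalized counts at 7d, against 223, 189 and 182 at 1d (log2 fold change 0.47, SE 0.18). circRNA_36806 of PICALM, an adaptor of clathrin-coated pits, had 273, 273 and 265 at 7d, against 195, 181 and 234 at 1d (0.41, SE 0.17). Both did not overlap between ages, but their adjusted p by edgeR was 0.318 and 0.393. circRNA_05253 of LOC110255584 had a log2 fold change of 0.38 with overlapping groups, and circRNA_01598 of SLTM, an RNA-binding protein, had -0.04. The fifth, circRNA_30386, had 0, 436 and 418 at 7d, against 209, 268 and 225 at 1d, so that its 7d mean of 285 ± 247 rests on 2 libraries.

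In total 64 circRNAs had reads at 7d, 20 of them in all 3 pigs, and were listed at 0 in each library of 1d. Likewise, 64 were listed at 0 in each library of 7d and had reads at 1d, 15 of them in all 3 pigs. No count of 1 occurs in the table, so a value listed at 0 may stand for a read. The mean of the other age was therefore divided by a floor of 7 counts over 3 libraries. The floor covers counting error on the side listed at 0 only. The mean of the other age was taken without error, so these ratios are not bounds on the fold change. circRNA_32443 of PRPF4B, a kinase of the splicing machinery, with 20.5, 5.47 and 7.98 normalized counts at 7d, had a mean 2.83 times the floor. For circRNA_14075 of WAPL, which releases cohesin from chromatin, the ratio was 2.22, and for circRNA_30966 of SNRNP40, a protein of the U5 particle, 2.10. In the other direction the 1d mean of circRNA_01711 of UNC13C was 2.75 times the floor, although 1d replicate 1 was also listed at 0. The ratio was 2.18 for circRNA_16893 of CUL3, a scaffold of ubiquitin ligases, and 2.08 for circRNA_03452 of UHRF2.

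Host genes of DNA replication and S phase pointed in the same direction, although none passed the adjusted threshold. Of 91 genes listed, 16 had circRNAs (26 in all), and 15 of the 16 had a log2 fold change above 0, beside 49.7% of all 1675 host genes. Their median was 0.64, beside -0.01 for all host genes. At an unadjusted p under 0.05, 2 were higher and 0 lower, where 6.03% of all host genes were higher and 4.66% lower. In 4 of the 16 every 7d library stood above every 1d library, where this holds for 8.96% of all host genes, and in 0 every 7d library stood below (6.45% of all). Their summed level was 480, 511 and 487 normalized counts at 7d (493 ± 16.2), against 321, 347 and 309 at 1d (326 ± 19.1). The spread within each age was small beside the gap between the ages. Most of this gap came from ATAD2 (mean 184 at 7d, 116 at 1d) and DTL (63.4 and 32.5).

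ATAD2, a bromodomain ATPase of replicating chromatin with 8 circRNAs, had 186, 186 and 180 normalized counts at 7d, against 110, 115 and 124 at 1d (log2 fold change 0.66, SE 0.21, edgeR adjusted p = 0.224). All 8 of its circRNAs had log2 fold changes above 0, from 0.13 to 1.57. DTL, which directs a ubiquitin ligase to licensing factors in S phase, had 63.5, 64.4 and 62.2 at 7d, against 39.4, 31.7 and 26.4 at 1d (0.98, SE 0.35, edgeR adjusted p = 0.263). The 7d pigs were nearly equal for both genes. FANCM, a helicase of stalled forks, had 28.1, 28.4 and 16.8 at 7d, against 16.6, 10 and 12.4 at 1d (0.92), with almost no gap. RRM1, the large subunit of ribonucleotide reductase, had 10.3, 3.79 and 6.72 at 7d, against 0, 3.33 and 3.11 at 1d (1.59, SE 1.17), which are few reads. ORC3 of the origin recognition complex had 8.87, 15.1 and 21.9 at 7d, against 8.29, 10 and 4.66 at 1d (0.99). BARD1, the partner of BRCA1, had 8.87, 37.9 and 25.2 at 7d, against 14.5, 16.7 and 7.77 at 1d (0.86). These last groups overlapped, and MCM6 of the replicative helicase (0.08) and ORC4 (0.11) were close to 0, with values on both sides of it when single libraries were left out. ATAD5 (0.71) and RFC1 (0.33), which unload and load the sliding clamp, also had overlapping groups. The member below 0 was TIPIN (-0.36).

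Mitosis and kinetochore host genes gave the widest set. Of 108 genes listed, 29 had circRNAs (46 in all), 24 had a log2 fold change above 0 and the median was 0.76. At an unadjusted p under 0.05, 5 were higher and 0 lower, where 6.03% of all host genes were higher and 4.66% lower. In 10 every 7d library stood above every 1d library and in 0 below, where these hold for 8.96% and 6.45% of all host genes. None passed the adjusted threshold. The summed level was 739, 808 and 807 normalized counts at 7d (785 ± 39.7), against 523, 415 and 444 at 1d (461 ± 55.6).

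HMMR, a protein of spindle microtubules and a hyaluronan receptor, had the highest summed counts of this list, with 148, 222 and 198 normalized counts at 7d, against 91.2, 60.0 and 113 at 1d (log2 fold change 1.09, SE 0.44, edgeR adjusted p = 0.355, and 0.0155 in the fit of the 6 libraries alone). Its 3 circRNAs, which share their first exon, were each separated between ages. For circRNA_18086 the gap was narrow, with a lowest 7d value of 33.7 and a highest 1d value of 33.1. The main form circRNA_18091 had 98.2, 155 and 126 at 7d, against 61.7, 31.3 and 67.8 at 1d. KNL1, the scaffold of the kinetochore, had 63.5, 79.5 and 57.2 at 7d, against 39.4, 20 and 38.8 at 1d (1.03, SE 0.35, edgeR adjusted p = 0.263). Of its pair of circRNAs, circRNA_02197 did not overlap between ages and circRNA_02214 did. CIT, a kinase of cytokinesis, had 41.4, 28.4 and 21.9 at 7d, against 14.5, 18.3 and 9.32 at 1d (1.13). VRK1, a chromatin kinase, had 57.6, 62.5 and 87.4 at 7d, against 53.9, 48.3 and 10.9 at 1d (0.91), where 1d replicate 3 was far below the others and the log2 fold change was 0.44 without it. TTK, a kinase of the spindle checkpoint, had 26.6, 24.6 and 6.72 at 7d, against 6.22, 8.33 and 6.21 at 1d (1.46), and 7d replicate 3 lay among those of 1d. SMC4, a subunit of condensin, had 69.5, 64.4 and 75.6 at 7d, against 60.1, 50.0 and 32.6 at 1d (0.57).

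Further members with a mean of at least 10 that were separated between ages were RACGAP1 (1.13), BUB1 (1.02), KIF11 (0.89), CENPC (0.74) and GPSM2 (1.14), which act in cytokinesis, the checkpoint, the spindle, the centromere and spindle orientation. CENPF (1.16), SGO1 (0.93), TPX2 (0.81), MELK (0.59), BUB1B (0.42), CENPE (0.24) and CENPK (0.16) had positive values with overlapping groups. The 5 members below 0 were TOP2A (-0.61), KIF20B (-0.46), LMNB1 (-0.21), CEP192 (-0.07) and NCAPG2 (-0.07). TOP2A, the topoisomerase of dividing cells, had 8.87, 9.47 and 6.72 normalized counts at 7d, against 0, 6.67 and 29.5 at 1d, and without 1d replicate 3 its log2 fold change was 1.17.

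Red cell host genes were few. Of 70 genes listed, 6 had circRNAs (12 in all), 5 of the 6 had a log2 fold change above 0 (49.7% of all host genes) with a median of 0.82, and 0 stood at an unadjusted p under 0.05. The summed level was 244, 254 and 254 normalized counts at 7d (250 ± 5.73), against 203, 175 and 155 at 1d (178 ± 24.1). Most of this gap came from TFRC (mean 85.4 at 7d, 49.4 at 1d) and SOX6 (53.4 and 20.3). EPB41 (69.1 and 78.2) was lower at 7d and TMOD3 (16.8 and 16.4) was nearly level, while ABCB10 and UROS added little. In 2 of the 6 every 7d library stood above every 1d library, as in 8.96% of all host genes. The median was 0.47 without 1d replicate 3 and 0.46 with the GC content of the library as a covariate. The defining genes of the lineage, such as the globin HBB, ALAS2, GATA1, KLF1 and SLC4A1, were not measured here, and TFRC, EPB41 and TMOD3 are also used by other cells.

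SOX6, a transcription factor of red cell maturation, had 29.6, 85.2 and 45.4 normalized counts at 7d, against 20.7, 20 and 20.2 at 1d (log2 fold change 1.37, SE 0.70, edgeR adjusted p = 0.51). The 1d pigs were nearly equal, whereas the 7d pigs spread widely. TFRC, the transferrin receptor through which iron is taken up, had 97.5, 79.5 and 79.0 at 7d, against 62.2, 53.3 and 32.6 at 1d (0.81, SE 0.53, edgeR adjusted p = 0.635). Of its 3 circRNAs, circRNA_11324 had 54.2, 47.4 and 49.5 at 7d, against 37.8, 26.3 and 19.6 at 1d, and circRNA_11343 was also separated (1.14). The third, circRNA_11322, overlapped, with 14.7, 14.6 and 0 at 7d, against 7.96, 16.5 and 4.52 at 1d (0.01). ABCB10, a mitochondrial transporter needed for haem synthesis, had 23.6, 7.57 and 23.5 at 7d, against 6.22, 21.7 and 3.11 at 1d (0.82, SE 0.87), with overlapping groups and a log2 fold change of -0.44 with the GC covariate. UROS, an enzyme of haem synthesis, had 2.96, 11.4 and 8.4 at 7d, against 6.22, 3.33 and 0 at 1d (1.28, SE 1.15). EPB41, protein 4.1 of the membrane skeleton, had 75.4, 53.0 and 79.0 at 7d, against 87.1, 68.3 and 79.2 at 1d (-0.17), and TMOD3, which caps actin filaments, had 14.8, 17 and 18.5 at 7d, against 20.7, 8.33 and 20.2 at 1d (0.04).

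**Figure D3:**
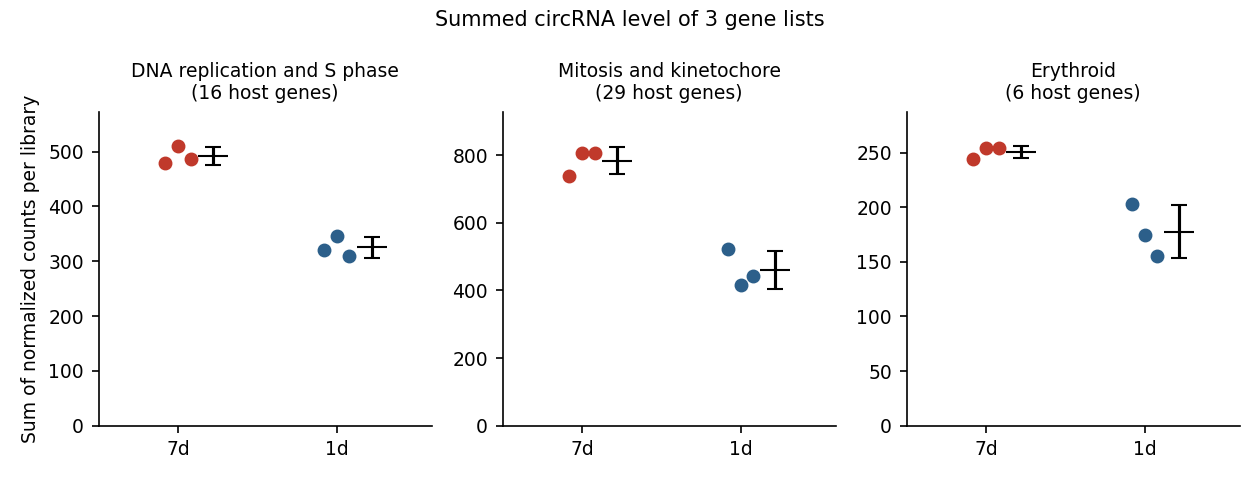
Sum of normalized counts per library (y axis) over the host genes of the DNA replication and S phase, mitosis and kinetochore, and erythroid lists, at 7d and 1d (x axis); points are pigs, and the bars beside them are the mean ± SD (n = 3). The lowest 7d sums were 480, 739 and 244, above the highest 1d sums of 347, 523 and 203.

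Across the 8 stages, the 7d libraries held the highest sums of these 3 lists. For DNA replication and S phase the stage means from 1d to 180d were 326, 493, 327, 335, 319, 287, 241 and 182 normalized counts, and the lowest 7d library (480) was above the highest of the other 21 (419). For mitosis and kinetochore the stage means were 461, 785, 433, 504, 377, 316, 250 and 165, with 739 for the lowest 7d library and 644 for the highest other. For the erythroid list they were 178, 250, 158, 149, 121, 105, 108 and 81.4, with 244 for the lowest 7d library and 203 for the highest other. The sums were thus higher at 7d than at the stages on either side of it, and genes with high counts weigh most in them. The libraries of 1d and 7d are those of the comparison above, so the stages from 14d on add only the other side of the peak.

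By gene, the stage mean was highest at 7d in 13 of the 16 replication host genes (81.2%) and 17 of the 29 mitosis host genes (58.6%). The same held for 4 of the 6 erythroid host genes (66.7%), beside 303 of all 1675 host genes (18.1%). A gene above 0 in 7d vs. 1d already meets part of this rule. That applied to 15, 24 and 5 members of these lists, beside 49.7% of all host genes. These shares are therefore not separate from the comparison above. All 3 libraries of 7d stood above the other 21 for ATAD2 and DTL, for BUB1, SMC4, KIF11, RACGAP1, VRK1 and GPSM2, and for TFRC, and for 29 of all host genes (1.73%). DTL, for example, had stage means of 32.5, 63.4, 32, 29.2, 21.9, 19.5, 10.2 and 5.84 from 1d to 180d. No circRNA was called in 14d vs. 7d by edgeR (0% higher and 0% lower), with 230 higher (7.67%) and 89 lower (2.97%) at an unadjusted p under 0.05, while DESeq2 called 17. In 14d vs. 1d edgeR called 2, both higher (0.0667%). These comparisons share libraries with 7d vs. 1d.

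**Figure D4:**
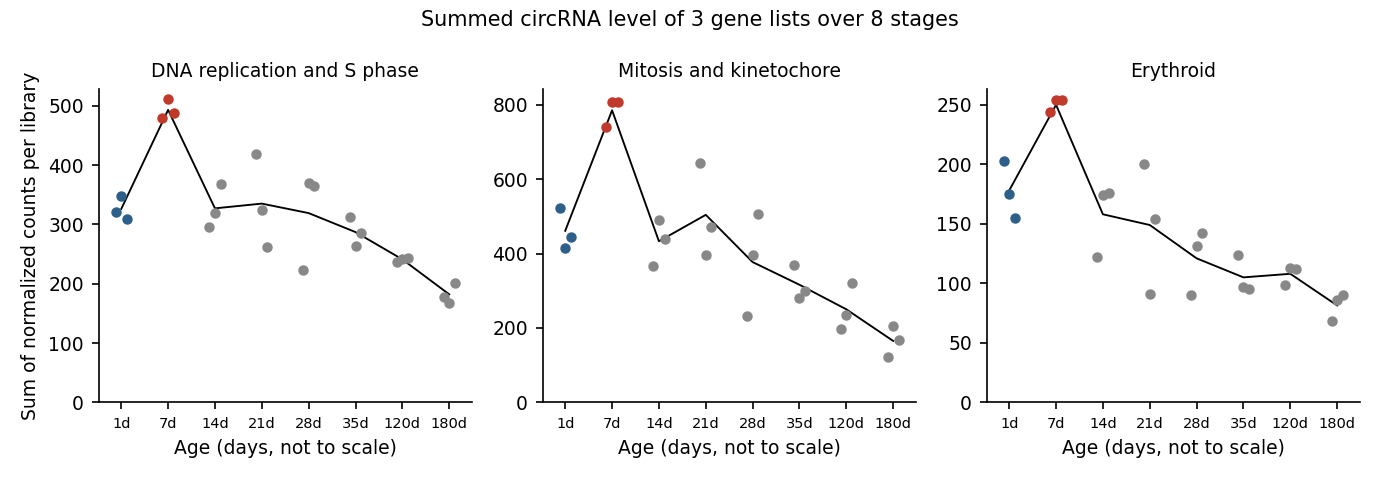
Sum of normalized counts per library (y axis) over the 3 lists at the 8 stages from 1d to 180d (x axis, not to scale); points are pigs, with 7d in red and 1d in blue, and the line joins the stage means. The 7d points are the highest of each panel, with stage means of 493, 785 and 250.

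Immune and stromal host genes had few circRNAs in the deposited table, which holds a part of those the study identified. In both lymphocyte lists 3 of the 4 measured members were below 0, where this held for 841 of all 1675 host genes. Among them were NFATC2 and CD22, each near 0 (log2 fold change -0.20). So few members cannot show a direction of either list. Of T and NK cell genes 4 of 55 were measured, with 3 below 0 and a median of -1.13. TOX, a transcription factor of T cell development, had 5.91, 0 and 5.04 normalized counts at 7d, against 18.7, 16.7 and 14.0 at 1d (log2 fold change -2.05, SE 0.65, edgeR adjusted p = 0.219). LEF1 had -2.20 (-5.62 to -0.51 with a library left out) and CD96 1.17 (0.3 to 1.79), with overlapping groups. The sum of the list was 42.9, 17 and 10.1 at 7d, against 49.8, 33.3 and 35.7 at 1d, and the groups overlapped. Without 1d replicate 1 the median was -0.31. Of B and plasma cell genes 4 of 42 were measured, with 3 below 0, a median of -0.50 and sums of 57.6, 11.4 and 13.4 at 7d, against 45.6, 33.3 and 49.7 at 1d. Here 7d replicate 1 was the highest of the 6 libraries and the other 7d pigs were the lowest, and the median was -1.51 without it. RALGPS2 had -1.48, AFF3 -0.81 and BANK1 1.43, each with overlapping groups. The T cell genes CD3E and CD4 and the B cell genes MS4A1 and CD79A were not measured here. circRNAs without an assigned host gene do not enter any of these lists. Among them is circRNA_24032, a junction of the immunoglobulin kappa locus, which B and plasma cells use. It was higher at 7d, opposite to the B and plasma cell median, with a log2 fold change of 2.06 in the fit of the 6 libraries alone. In the fit of all 24 libraries it was not called. Of macrophage genes 2 of 35, of stromal and endothelial genes 2 of 58 and of fetal growth genes 1 of 19 had circRNAs, with 0 at an unadjusted p under 0.05. Granulocyte, megakaryocyte, stem cell, fat cell and pancreas genes had none in the deposited table.

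Of interferon response genes 8 of 42 had circRNAs, with 5 above 0, 2 below, PARP14 listed at 0 in all 6 libraries and a median of 0.68. Their summed level was 51.7, 83.3 and 42 normalized counts at 7d, against 35.3, 30 and 48.2 at 1d, and the groups overlapped. EIF2AK2, the kinase that senses double-stranded RNA, had 2.96, 17 and 5.04 normalized counts at 7d, against 6.22, 0 and 0 at 1d (log2 fold change 2.10). HERC6 had 20.7, 22.7 and 6.72 at 7d, against 8.29, 5 and 6.21 at 1d (1.37), and SAMHD1 had -2.10. The first 2 stood at an unadjusted p under 0.05 with overlapping groups, where 6.03% of all host genes were higher at this p, and their adjusted p by edgeR was 0.362 and 0.457. STAT2, a transducer of interferon signals, was the member without overlap (2.01, 8.96% of all host genes), on few reads, and was named after its values were seen. Of hypoxia genes 5 of 28 were measured, with a median of 0.06 (KDM3A 0.30, HIF1A -0.63, HK1 0.42).

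Splicing factors that act on circRNA formation did not point in one direction, with 5 of 29 measured and a median of 0.03. MBNL1, whose fly homologue promotes the circRNA of its own gene, had 0, 0 and 0 normalized counts at 7d, against 8.29, 0 and 3.11 at 1d, both at or under the floor. HNRNPM had a log2 fold change of 0.75 and PTBP3 of 0.32, with overlapping groups. Of genes whose circRNAs are conserved among mammals 20 of 28 were measured, with 14 above 0 and a median of 0.17. PICALM had 795, 824 and 681 at 7d, against 601, 562 and 642 at 1d (0.35, SE 0.14, edgeR adjusted p = 0.339). RBM33 had 105, 123 and 99.2 at 7d, against 74.7, 65 and 65.3 at 1d (0.68, SE 0.29), and HIPK3, a kinase, had 20.7, 7.57 and 10.1 at 7d, against 22.8, 31.7 and 24.9 at 1d (-1.01, SE 0.49). None passed the adjusted threshold.

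**Figure D5:**
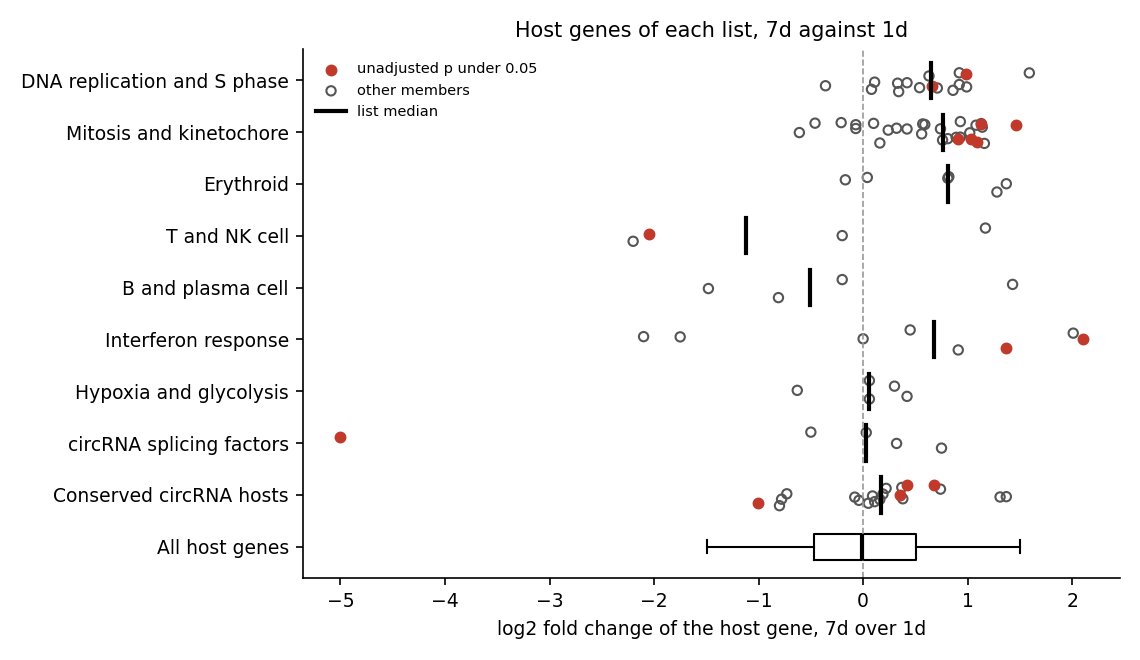
log2 fold change of each measured host gene in 7d vs. 1d (x axis) by gene list (y axis); filled points have an unadjusted p under 0.05, open points do not, vertical lines are list medians, and the box gives the quartiles of all 1675 host genes with whiskers at their 5th and 95th percentiles. The point far to the left is MBNL1, whose fitted value is no bound because it is listed at 0 at 7d. The medians were 0.64 for replication, 0.76 for mitosis and 0.82 for erythroid genes, beside -0.01 for all host genes.

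circRNAs of the same host gene tended to have the same sign. Among 151 host genes with at least 2 circRNAs of a mean of at least 10, the 380 circRNAs formed 354 pairs. Of these pairs 237 (66.9%) had log2 fold changes of the same sign, where the share above 0 among single circRNAs would give 50.1%. The median absolute difference was 0.42 within pairs and 0.56 over all pairs. These pairs share the host gene and, in many cases, a splice site. Fold changes bore little relation to the make-up of the circRNAs. Over 867 circRNAs with a mean of at least 10 and a known exon chain, the Spearman correlation of the log2 fold change was 0.0375 with GC content, -0.0691 with length and 0.0348 with the number of exons, and these circRNAs share the same 6 libraries.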

How the data were processed

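Spleen RNA of 24 Meishan pigs was sequenced, and the 3 libraries of 7d were compared with the 3 of 1d. The authors trimmed the reads, used BWA for alignment (Sscrofa11.1) and CIRI2 for circRNA detection, and FastQC, cutadapt and TopHat2 are also named in the submitters' processing notes. The deposited values are counts of back-splice reads without normalization, in which no count of 1 occurs.

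One edgeR quasi-likelihood model (edgeR 4.0.16, limma 3.58.1, R 4.3.3) was fitted to all stages, with TMM scaling, two-sided tests, Benjamini-Hochberg adjustment and no filter. circRNAs were called at an adjusted p under 0.05 with a 2-fold difference, host genes at the same adjusted p alone. A circRNA was assigned to the RefSeq gene whose exon ends lay within 1 base of its ends (2848 of 3000), and counts were summed per host gene. Sums were scaled separately, so host and circRNA values differ slightly. Library correlations used a prior count of 2. The floor for circRNAs listed at 0 is the 95% limit of 6.432 counts, rounded up to 7. The p-values of this model set the difference between ages against a spread estimated from all 24 libraries, not from the 6 compared alone. The members, the 17 gene lists and the rule for named items were chosen with earlier results of these data known, and lists were not tested.

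Named were the 10 circRNAs and 5 host genes of smallest p on either side that reached a mean of 10 without overlap between ages, the 5 most abundant circRNAs, the 3 highest listed at 0 at the other age in each direction, members of the replication, mitosis and erythroid lists with a mean of at least 10 or among the 6 smallest p, and the 3 smallest p of other lists. Low members below 0, marker genes and calls of other fits were named after their values were seen. Alternatives were DESeq2 1.42.0, other scalings and filters, the replicate number as a block, library GC as a covariate, only the 6 libraries, and each library left out. The deviations of same-numbered libraries were only weakly correlated (0.0246, 0.0335 and 0.0247), so the samples were not taken as paired. The scripts were tested on simulated data. Annotation and figures used Python 3.11.15, pandas 2.3.3, pyfaidx 0.9.0.4 and matplotlib 3.10.9.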

Additional observations from a re-analysis of the deposited data

How the results depend on the processing

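Most counts of the table were low, and even differences beyond the spread of the pigs did not always pass. circRNA_05967 of PSPC1, for example, had means of 73.4 ± 6.93 at 7d and 40.9 ± 2.94 at 1d (edgeR adjusted p = 0.225). The 84 named circRNAs and host genes gave 1242 values under up to 15 alternatives, where 12 host genes of low counts did not enter every filtered fit and had 13 or 14. Of these values 1216 kept their direction and their side of the threshold, 19 reversed, 5 lost and 2 gained the call. The median log2 fold changes of the replication, mitosis and erythroid lists stayed above 0 in every alternative.

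No circRNA was called with any library left out (0 to 0), and 3 were called with only the 6 libraries. At an unadjusted p under 0.05, 96 and 79 circRNAs were higher and lower after filterByExpr and 59 and 41 with a mean of at least 10, where fewer circRNAs entered, and 86 were lower with clean reads as the depth. Host genes called numbered 0 with clean reads, 2 with a mean of at least 10 (IARS and OSBPL1A), 3 with only the 6 libraries (HMMR, IARS and NPRL3), 2 with library GC as a covariate (IARS and CUL3) and 0 to 3 with a library left out. The call of IARS was lost with clean reads (1.48) and in 4 of the 6 fits with a library left out (range 1.25 to 1.6). In 14d vs. 7d, 1 circRNA was called with DESeq2 size factors, 1 with table totals, 21 with clean reads, 17 by DESeq2, 8 after filterByExpr and 6 with a mean of at least 10. In 14d vs. 1d, 1 was called with size factors, 1 with table totals, 85 with clean reads and 1 with the replicate block. The replicate number as a block gave IARS 1.40 (edgeR adjusted p = 0.0428) and the mitosis median 0.83, where the deviations of same-numbered libraries correlated at 0.0246 to 0.0335 and those of other pairs at -0.0359 to 0.011, so that each library correlated best with its own number, a hint from the data and not the design.

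The replication median was 0.88 with library GC and 0.49 to 0.73 with a library left out. The mitosis median was 0.82 with clean reads, 0.85 after filterByExpr, 0.90 with a mean of at least 10 and 0.62 to 0.90 with a library left out. The erythroid median was 0.46 with library GC and 0.47 to 1.12 with a library left out. The T and NK cell median was -0.20 after filterByExpr and -1.79 to -0.31 with a library left out, and the B cell median -1.51 to -0.19. The hypoxia median was -0.33 with library GC and -0.12 to 0.49 with a library left out, and the splicing factor median -0.01 with table totals, -0.05 with library GC and -0.47 to 0.41. The ratio of 7d to 1d was 0.982 to 1.18 for totals and 0.981 to 1.05 for detected circRNAs with a library left out, and 0.99 for detected circRNAs after thinning. Among single genes, NCAPG2 was 0.04 with clean reads, ABCB10 -0.44 and HK1 -0.46 with library GC and TMOD3 -0.01 with table totals. With a library left out, ORC4 ran from -0.09 to 0.43, MCM6 from -0.08 to 0.25, TOP2A from -1.11 to 1.17, CENPK from -0.17 to 0.48, NCAPG2 from -0.57 to 0.14, TMOD3 from -0.29 to 0.25, KDM3A from 0 to 0.52, HIF1A from -4.09 to 3.45 and HK1 from -0.76 to 1.1. The cause of these changes was not tested.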

Other observations

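circRNA_30386 (chr6:56457307-56554190, plus strand, Sscrofa11.1) varied widely both within and between ages. It spans 8 annotated genes of a cationic amino acid transporter 3-like cluster and was chosen after its values were seen. Its raw counts were 0, 239 and 262 in the 7d libraries, against 105, 163 and 149 in the 1d libraries. Over the 24 libraries 5 were listed at 0, 7 held 4 to 16 reads and 12 held 47 to 428 reads, so that no library lay between 16 and 47. The low class followed age in part, since all 6 libraries of 120d and 180d held 4 to 16 reads, and the 12 high libraries were all from 1d to 35d. The 5 libraries at 0 came 1 each from 7d, 14d, 21d, 28d and 35d.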
